A study of Mus musculus with 6 samples.

Results

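A set of 6 genes that restrain or carry the complement system was followed in PGCLCs (mouse primordial germ cell-like cells), a culture model of the earliest germ cells, after induced loss of the polycomb enzyme gene Ezh2. They are Serping1, Cd55, Cd59a, C3, C1qbp and Clu, which is 6 of the 37991 gene IDs measured; all but C3 passed the filter on low counts. Serping1 gave the set its reason, because it was higher in Ezh2 KO than in Ctrl in these same libraries, and the others were added as complement genes. The values of Serping1 are therefore given as a description, with no test. The name complement inhibitors holds for 4 of the 6. C3 is the central component that the inhibitors act on, and C1qbp is a C1q-binding protein that resides mainly in mitochondria.

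The Ezh2 KO group was 3 libraries of PGCLCs labelled Ezh2-/-, CreERT2, whose aggregates had received 4-hydroxytamoxifen dissolved in ethanol; the Ctrl group was 3 libraries labelled Ezh2f/f, CreERT2, given ethanol alone. All 6 came from C57BL/6 cells that carried the floxed Ezh2 alleles and the tamoxifen-inducible Cre. Only the Ezh2 KO group received the drug that activates the Cre. Effects of the drug or of the Cre therefore cannot be told apart from those of Ezh2 loss. Stem cells were turned into epiblast-like cells with bFGF and activin A, then aggregated with BMP2, SCF, LIF and EGF, dissociated and sorted on day 4; the drug or ethanol was in the medium at aggregation, and libraries were made with a low-input kit. The promoter of the Cre, the sorting gate and the number of independent inductions were not given in the sources used here, so the spread between replicates may be partly technical.

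Complement is a cascade of plasma and cell-surface proteins that tags and lyses targets. The classical branch starts with the C1 complex, in which C1q recognises a surface and the proteases C1r and C1s cut C4 and C2; all branches then meet at C3, whose activation leads to the membrane attack complex. Host cells protect themselves with soluble inhibitors, such as the serpin encoded by Serping1, and with membrane proteins that break up the C3 convertases or block the attack complex. Ezh2 is the methyltransferase of polycomb repressive complex 2, which places the repressive histone mark H3K27me3.

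Library depth was 27072150 to 38643944 counts in Ezh2 KO and 27358959 to 49382146 counts in Ctrl, so that 1 count was worth 0.0206 to 0.0386 CPM (read counts relative to the TMM-scaled library size). Ezh2 itself stood at 40.8, 67.1 and 70.0 CPM in the Ezh2 KO replicates 1, 2 and 3, against 91.8, 78.1 and 95.3 CPM in the Ctrl replicates. All Ezh2 KO libraries were below all Ctrl libraries, and an exact two-sided permutation test gave p = 0.1, the smallest possible with 3 against 3. The Ezh2 KO mean was 67.1% of the Ctrl mean, and the log2 fold change of -0.58 did not pass edgeR's test (adjusted p = 0.976, or 0.481 to 1 over the alternatives). Leaving out Ezh2 KO replicate 1, the lowest, gave -0.37. Counts over the whole gene do not measure how much of the deleted part was lost. Ezh2 KO replicate 2 and Ctrl replicate 1 lay at the opposite ends of the first principal component. Germ cell markers, 10 of 10 tested, summed to 1258 to 1702 CPM in Ezh2 KO and 1590 to 1778 CPM in Ctrl. Their log2 fold changes were positive in 3 and negative in 7, with a median of -0.20, and edgeR called 0 of them. Over all tested genes 51.3% were positive and the median was 0.01. In bulk libraries fewer cells of a type and less RNA per cell cannot be told apart.

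Serping1 (ENSMUSG00000023224, chromosome 2) encodes C1 inhibitor, which inactivates C1r, C1s and the lectin-pathway proteases and also plasma kallikrein and factor XII. It stood at 13.8, 13.0 and 13.6 CPM in the Ezh2 KO replicates 1, 2 and 3, against 7.75, 6.49 and 6.72 CPM in the Ctrl replicates. The 3 Ezh2 KO libraries lay close together and above every Ctrl library, with a gap of 5.22 CPM between the lowest Ezh2 KO and the highest Ctrl value. The means were 13.5 ± 0.443 CPM in Ezh2 KO and 6.99 ± 0.671 CPM in Ctrl (SD, n = 3 each), a log2 fold change of 0.95. Each of the 9 pairings of an Ezh2 KO with a Ctrl library gave a ratio above 1, from 1.67 to 2.13. These values rest on 1404 reads in Ezh2 KO and 749 reads in Ctrl. The coefficient of variation was 3.29% in Ezh2 KO and 9.60% in Ctrl, where read counting alone gives 4.62% and 6.33%. Leaving out Ezh2 KO replicate 2 gave a log2 fold change of 0.98, leaving out Ctrl replicate 1 gave 1.03, and leaving out both gave 1.06.

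**Figure D1:**
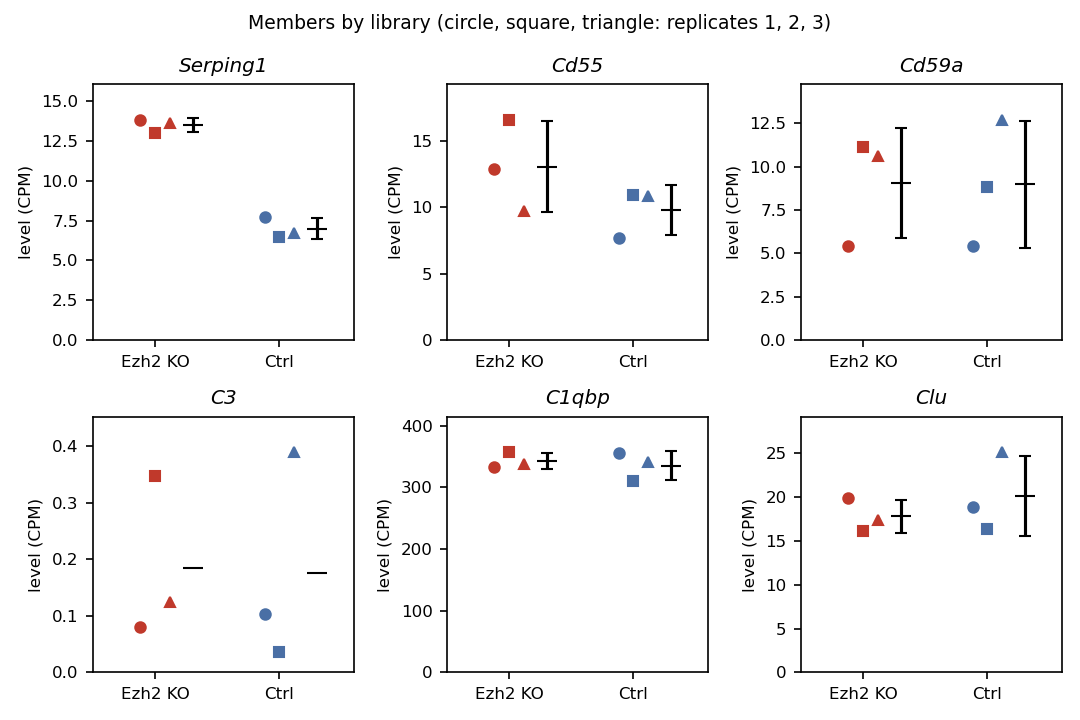
Level of each of the 6 genes in CPM, 1 panel per gene with its own axis from 0; points are libraries (circle, square and triangle for replicates 1, 2 and 3), Ezh2 KO left and Ctrl right, with the mean and SD of 3 libraries in black (mean only for C3). Serping1 sits at 13.0 to 13.8 CPM in Ezh2 KO and at 6.49 to 7.75 CPM in Ctrl, while the groups overlap in the other 5 genes.

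As background to that difference, all Ezh2 KO libraries lay above all Ctrl libraries in 4.07% of the 16420 tested genes and below them in 4.03%, or 8.09% without overlap in either direction, and nothing is read from Serping1 being among them. Of 1627 tested genes with a Ctrl mean of 5 to 10 CPM, 12 had a log2 fold change at least as large as that of Serping1, itself included, and 85 were higher without overlap. Serping1 was picked for its rise in these libraries, so this rank is a description and nothing is read from it either. Over the whole table edgeR's quasi-likelihood test called 0 genes at an adjusted p under 0.05, or 0.00%. At an unadjusted p under 0.05 it had 459 genes (2.80%) and limma-voom 466, limma-voom called 0 genes, and DESeq2 called 5 of 24879 (0.0201%). With the replicate number as a block edgeR again called 0 genes, had 1495 (9.10%, with 5.98% higher) at an unadjusted p under 0.05, and DESeq2 called 50 of 17560 (0.285%).

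Clu encodes clusterin, a secreted chaperone that holds back assembly of the membrane attack complex. Its level was 19.8, 16.1 and 17.4 CPM in the Ezh2 KO replicates, against 18.8, 16.4 and 25.1 CPM in the Ctrl replicates. The groups overlapped, and Ctrl replicate 3 was the highest of the 6 libraries. The log2 fold change was -0.18 ± 0.23 (SE), with a 95% interval from -0.71 to 0.36, and edgeR gave an adjusted p of 0.976. Without Ezh2 KO replicate 2 and Ctrl replicate 1 it was -0.15.

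Cd55 encodes decay-accelerating factor, a membrane protein that speeds the break-up of C3 convertases. It has a neighbouring copy in the mouse, Cd55b, and the 250 bases upstream of the 2 starts are printed to show how alike the copies are. They were taken from RefSeq in the build GRCm38.p6, both on the minus strand, for Cd55 at chr1:130462745-130462994 and for Cd55b at chr1:130423044-130423293. Capitals mark the longest run of letters found in both, which is 24 bases.
Cd55: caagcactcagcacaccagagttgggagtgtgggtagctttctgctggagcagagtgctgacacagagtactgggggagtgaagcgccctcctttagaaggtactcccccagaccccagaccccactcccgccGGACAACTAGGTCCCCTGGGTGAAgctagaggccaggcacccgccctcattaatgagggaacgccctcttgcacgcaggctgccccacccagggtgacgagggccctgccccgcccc
Cd55b: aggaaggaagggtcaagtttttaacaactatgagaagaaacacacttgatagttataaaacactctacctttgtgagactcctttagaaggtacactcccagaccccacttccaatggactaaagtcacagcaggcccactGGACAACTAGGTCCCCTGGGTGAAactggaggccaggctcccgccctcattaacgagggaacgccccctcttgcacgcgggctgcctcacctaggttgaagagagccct
Aligned, the upstream regions had the same letter at 174 of 210 positions without a gap, or 82.9%. In the transcripts, 438 of the 4801 different stretches of 50 bases in Cd55, or 9.12%, also occur in another gene on either strand, 384 of them in Cd55b. For Cd55b the share was 30.4%, so part of its reads could be assigned to Cd55 or lost.

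Cd55 stood at 12.9, 16.6 and 9.73 CPM in the Ezh2 KO replicates, against 7.67, 10.96 and 10.86 CPM in the Ctrl replicates. Ezh2 KO replicates 1 and 2 exceeded every Ctrl library, and replicate 3 was below Ctrl replicates 2 and 3. The means were 13.1 ± 3.44 CPM in Ezh2 KO and 9.83 ± 1.87 CPM in Ctrl (SD, n = 3 each). The log2 fold change of 0.41 ± 0.28 (SE), with a 95% interval from -0.24 to 1.06, did not pass edgeR's test (adjusted p = 0.976). Without Ezh2 KO replicate 2 and Ctrl replicate 1 it was 0.05. Cd55b was far less abundant, at 0.455, 1.20 and 0.321 CPM in Ezh2 KO and 0.186, 0.497 and 0.460 CPM in Ctrl. As in Cd55, replicate 2 held the highest value of each group.

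Cd59a encodes the GPI-anchored protein that stops the last step of membrane attack. Its level was 5.43, 11.2 and 10.6 CPM in the Ezh2 KO replicates, against 5.40, 8.83 and 12.7 CPM in the Ctrl replicates. Replicate 1 was the lowest of either group, and the groups covered nearly the same range. Within-group variation reached 34.9% in Ezh2 KO and 40.7% in Ctrl, where counting alone gives 5.70% and 5.87%. The log2 fold change was 0.02 ± 0.40 (SE), and its 95% interval of -0.90 to 0.93 is too wide to speak of equal levels (adjusted p = 0.996 in edgeR). With Ezh2 KO replicate 2 and Ctrl replicate 1 left out it was -0.41. The neighbouring copy Cd59b was at 3.56, 6.37 and 4.47 CPM in Ezh2 KO and 3.32, 5.68 and 4.25 CPM in Ctrl, again with replicate 1 lowest in each group. Of the stretches of 50 bases in Cd59a, 3.87% also occur in another gene, namely Cd59b. For Cd59b the share was 20.1%, or 264 of 1316, with 115 of them in Efr3a.

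C1qbp, whose product binds the globular heads of C1q and serves mitochondrial translation, was by far the most abundant of the 6. It stood at 333, 357 and 338 CPM in the Ezh2 KO replicates, against 355, 310 and 341 CPM in the Ctrl replicates. The groups overlapped, and the means of 343 ± 12.8 CPM in Ezh2 KO and 335 ± 23.3 CPM in Ctrl (SD, n = 3 each) differed by less than the spread. The 95% interval of its log2 fold change, -0.25 to 0.32 around 0.03, was the narrowest among the 4 tested members that have one (adjusted p = 0.986 in edgeR). Without Ezh2 KO replicate 2 and Ctrl replicate 1 it was 0.05.

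C3 was close to the limit of detection, with 3, 9 and 5 reads in the Ezh2 KO libraries and 5, 1 and 11 reads in the Ctrl libraries. It did not pass the low-count filter and was not tested. The level was 0.0802, 0.347 and 0.124 CPM in Ezh2 KO, against 0.103, 0.0355 and 0.389 CPM in Ctrl, and the exact Poisson 95% intervals, which cover counting error only, spanned 0.0165 to 0.660 CPM over the Ezh2 KO libraries and 8.98e-04 to 0.696 CPM over the Ctrl libraries. Both groups totalled 17 reads, and no difference was detectable at this depth.

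Divided by merged exon length, the 6 genes fell into 3 tiers. C1qbp led with 121 ± 4.52 CPM per kb in Ezh2 KO and 119 ± 8.23 CPM per kb in Ctrl. In the Ezh2 KO libraries Serping1 followed at 5.79 ± 0.191 CPM per kb, then Clu at 5.17 ± 0.552, Cd59a at 5.01 ± 1.75 and Cd55 at 2.69 ± 0.709 CPM per kb (SD, n = 3). In the Ctrl libraries the order was Clu at 5.85 ± 1.31 CPM per kb, Cd59a at 4.96 ± 2.02, Serping1 at 3.01 ± 0.288 and Cd55 at 2.03 ± 0.386 CPM per kb. Clu and Cd59a did not differ beyond their spread in either group, and Serping1 stood beside them in Ezh2 KO but nearer to Cd55 in Ctrl. C3 was last, at 0.0357 CPM per kb in Ezh2 KO and 0.0342 CPM per kb in Ctrl. The lengths belong to an annotation of a later build than the authors', so these levels are approximate.

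Set out by replicate number, Serping1 alone of the 5 tested genes of the set had the Ezh2 KO library above the Ctrl library in each of the 3 pairs. The pairs gave log2 ratios of 0.83, 1.00 and 1.02 for Serping1 and of 0.75, 0.60 and -0.16 for Cd55. Those of Cd59a were 0.01, 0.34 and -0.26. Those of C1qbp were -0.09, 0.21 and -0.01, and those of Clu were 0.08, -0.02 and -0.53. Beside Serping1, which was picked for this, the genes had ratios on both sides of 0.

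**Figure D2:**
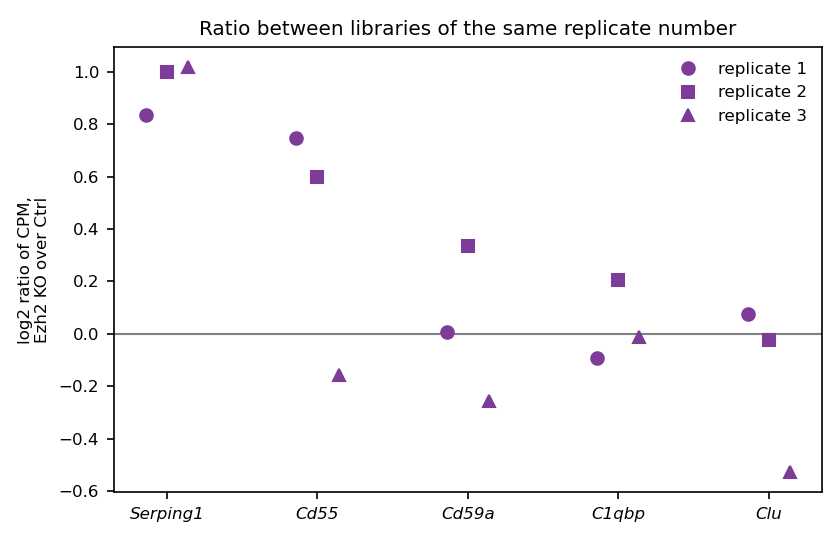
Log2 ratio of CPM between the Ezh2 KO and the Ctrl library of the same replicate number (circle, square and triangle for replicates 1, 2 and 3) for the 5 genes past the low-count filter; the line marks 0. The Serping1 points lie at 0.83 to 1.02, and the points of each other gene straddle 0.

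The other complement genes were taken from lists by role, 51 of which were found in the table; 18 had enough reads to test and 8 had no read in any library. EdgeR called 0 of the 18 and had 0 at an unadjusted p under 0.05, also with the replicate block; DESeq2 and limma-voom called 0 as well. Their log2 fold changes were positive in 9 and negative in 9, with a median of -0.01, against 8426 positive (51.3%) and a median of 0.01 over all tested genes. The intervals of the weakly expressed genes were wide, so missing the threshold does not show equal levels.

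**Figure D3:**
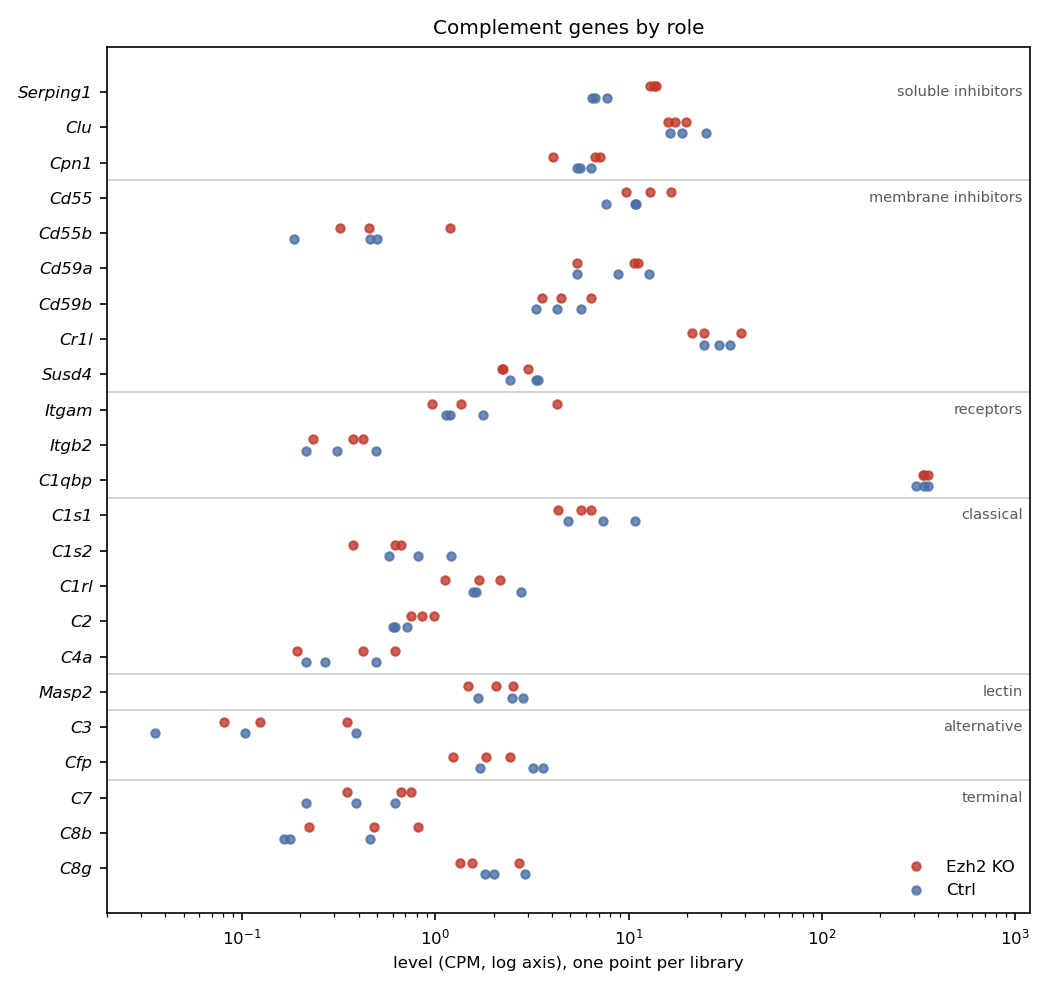
Level of the tested complement genes reported here and of C3 in CPM on a log axis, grouped by role; each point is 1 library, Ezh2 KO drawn above Ctrl in each row. C1qbp lies above 300 CPM, most components of the cascade lie below 3 CPM, and the Ezh2 KO and Ctrl points overlap except in Serping1 and C2.

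Among the membrane inhibitors, Cr1l encodes Crry, the rodent protein that controls C3 and C4 deposition on cells. It had 21.3, 38.2 and 24.5 CPM in the Ezh2 KO replicates, against 24.5, 29.3 and 33.4 CPM in the Ctrl replicates, with full overlap (log2 fold change -0.06, 95% interval -0.67 to 0.55, adjusted p = 0.987 in edgeR). Leaving out Ezh2 KO replicate 2 gave -0.33, Ctrl replicate 1 gave -0.17, and both gave -0.45, while leaving out Ezh2 KO replicate 1 gave 0.11. By CPM, Cr1l averaged 28.0 in Ezh2 KO and 29.1 in Ctrl, above the 13.1 and 9.83 of Cd55. Per merged exon length, 10349 bases for Cr1l and 4853 for Cd55, Cr1l was close to Cd55. It had 2.70 ± 0.868 CPM per kb in Ezh2 KO and 2.81 ± 0.429 CPM per kb in Ctrl (SD, n = 3 each). That closeness depends on the merged lengths. Cd46, which serves as a cofactor for C3b cleavage and is confined largely to the testis in mice, had at most 0.0772 CPM in Ezh2 KO and 0.142 CPM in Ctrl. Of the soluble inhibitors, Cpn1, a subunit of the carboxypeptidase that trims anaphylatoxins, averaged 5.98 ± 1.66 CPM in Ezh2 KO and 5.79 ± 0.503 CPM in Ctrl.

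Of the listed proteases that C1 inhibitor blocks, only C1s1 was above 5 CPM in the mean of either group. C1s1 had 4.33, 5.68 and 6.40 CPM in the Ezh2 KO replicates, against 4.84, 7.38 and 10.9 CPM in the Ctrl replicates. The groups overlapped, and the log2 fold change of -0.49 (95% interval -1.28 to 0.30) did not pass edgeR's test (adjusted p = 0.976). It was -0.19 without Ctrl replicate 3 and -0.74 without Ctrl replicate 1. Reads of C1s1 and its copy C1s2 may be shared. Per length, Serping1 amounted to 4.29, 3.08 and 2.86 times the level of C1s1 in the Ezh2 KO libraries, against 2.15, 1.18 and 0.833 times in the Ctrl libraries. Because that ratio contains Serping1, its lack of overlap is a description only. Masp2, the protease of the lectin branch, averaged 2.02 ± 0.515 CPM in Ezh2 KO and 2.33 ± 0.604 CPM in Ctrl. C1ra was at or under 0.134 CPM in the Ezh2 KO libraries and 0.212 CPM in the Ctrl libraries.

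Several genes of the recognition and effector end of the cascade had no reads, and the tested ones were weak. C1qb and C1qc, chains of C1q, had 0 reads in all 6 libraries, as did Cfb, the convertase protease of the alternative branch, and C9, the pore-forming component. C2, the convertase protease of the classical branch, had 0.749, 0.849 and 0.988 CPM in the Ezh2 KO replicates, against 0.618, 0.710 and 0.601 CPM in the Ctrl replicates. It was the 1 of the 18 whose libraries did not overlap, a share near the 4.07% higher and 8.09% in either direction over all tested genes. Its log2 fold change was 0.42 (95% interval -0.37 to 1.22, adjusted p = 0.976 in edgeR). Properdin (Cfp), which stabilises the alternative convertase, averaged 1.83 ± 0.599 CPM in Ezh2 KO and 2.83 ± 1.00 CPM in Ctrl. Of the components of the membrane attack complex, C8g averaged 1.86 ± 0.736 CPM in Ezh2 KO and 2.25 ± 0.595 CPM in Ctrl. C7 averaged 0.588 ± 0.212 CPM in Ezh2 KO and 0.407 ± 0.203 CPM in Ctrl, and C8b 0.505 ± 0.295 CPM in Ezh2 KO and 0.267 ± 0.167 CPM in Ctrl (SD, n = 3 each). The groups overlapped in C7, C8b and C8g.

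**Figure D4:**
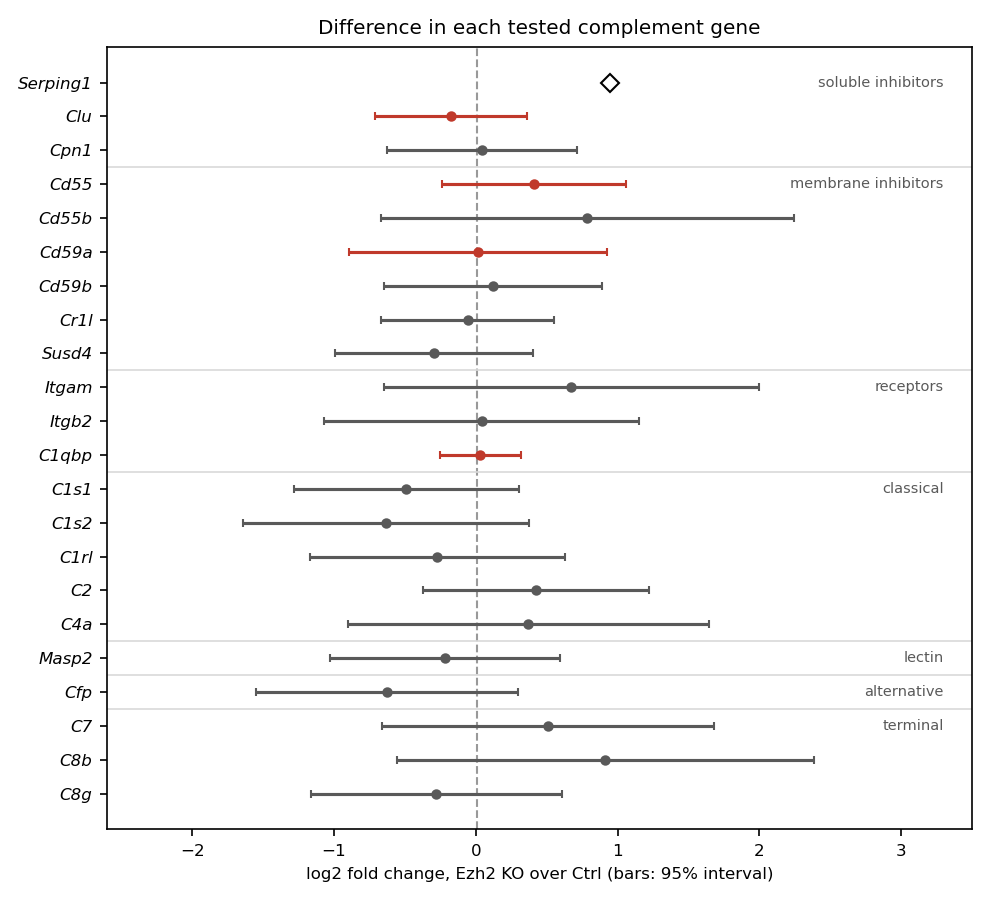
Log2 fold change of Ezh2 KO over Ctrl for the tested complement genes reported here, by role, with 95% intervals from edgeR's fit; members of the set are red, and Serping1 is an open diamond without interval because it was chosen for its difference in these libraries. The dashed line is the median of all tested genes, 0.01, and every interval drawn crosses it.

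Cd55 and Cd59a reach the cell surface on a GPI anchor, so the genes that build this anchor were read as well. Of 26 tested, edgeR called 0, with 0 at an unadjusted p under 0.05 and 2, lower, with the replicate block, where 3.12% of all tested genes were lower at that level; limma-voom and DESeq2 called 0. Their median log2 fold change was -0.08. Pigl, an early deacetylase of the path, averaged 86.5 ± 4.64 CPM in Ezh2 KO and 71.4 ± 2.75 CPM in Ctrl, and Pigs, a subunit of the transamidase that attaches the anchor, averaged 75.7 ± 28.7 CPM in Ezh2 KO and 91.4 ± 19.3 CPM in Ctrl (SD, n = 3 each). Neither passed edgeR's test (adjusted p = 0.976 for both).

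Serping1 belongs to the serpins, of which 12 others on a list of 20 were tested. EdgeR called 0 of them, with 1 higher and 0 lower at an unadjusted p under 0.05, and limma-voom and DESeq2 called 0. The higher one stands against 1.55% higher and 1.25% lower at that level over all tested genes. Serpinh1, the collagen chaperone, had 116 ± 24.1 CPM in Ezh2 KO and 121 ± 41.0 CPM in Ctrl, and Serpinb6a, an intracellular protease inhibitor, had 53.0 ± 2.71 CPM in Ezh2 KO and 46.8 ± 4.88 CPM in Ctrl (SD, n = 3 each). Serping1 is also known to respond to interferons. Of 27 interferon response genes tested, edgeR called 0 and had 4 higher and 0 lower at an unadjusted p under 0.05. Over all tested genes 1.55% were higher and 1.25% lower at that level. With the replicate block edgeR had 4 higher and 2 lower, against 5.98% higher and 3.12% lower over all tested genes. In 5 of the 27 all Ezh2 KO libraries lay above all Ctrl libraries and in 2 below, against 4.07% and 4.03% over all tested genes. Limma-voom and DESeq2 called 0 of them. DESeq2 with the block called 2 genes of the list, against 0.285% of 17560 over the whole table. Any link of these genes to Serping1 was not tested.

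The genes whose pattern over the 6 libraries came closest to that of Serping1, among 11886 compared, were Tm6sf1, Gipc2, Irak3 and Serpinb6c. The root mean square difference of log2 CPM, after taking off each gene's mean, was 0.13 for Tm6sf1, 0.14 for Gipc2, 0.17 for Irak3 and 0.17 for Serpinb6c. Serpinb6c is one of several near-identical copies, so its counts are uncertain. Gipc2 averaged 12.2 ± 0.358 CPM in Ezh2 KO and 6.62 ± 1.18 CPM in Ctrl (SD, n = 3 each). Irak3, an inhibitor of Toll-like receptor signalling, averaged 9.33 ± 0.145 CPM in Ezh2 KO and 5.67 ± 1.19 CPM in Ctrl (SD, n = 3 each). The others of the set were not among these nearest genes and so were farther away by the same choice, at 0.44 for Cd55, 0.46 for C1qbp, 0.59 for Clu and 0.72 for Cd59a.

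**Figure D5:**
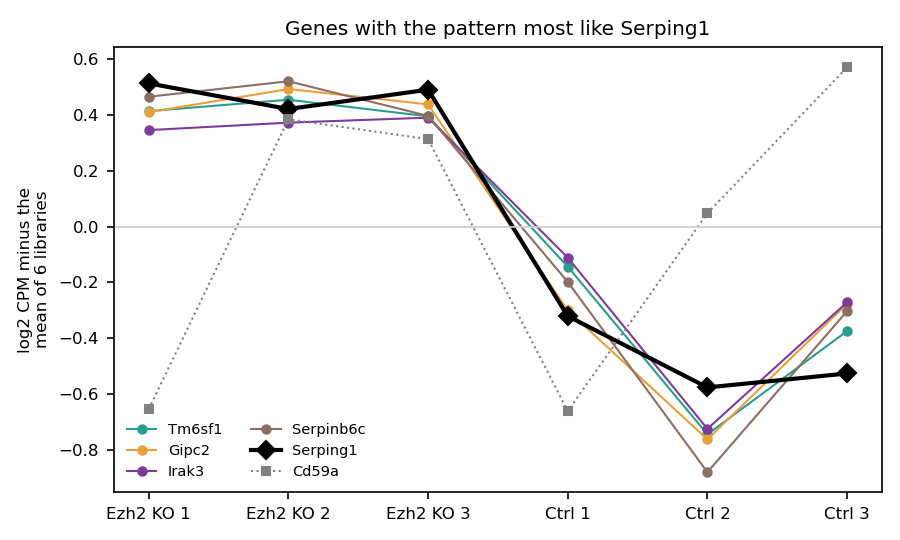
Log2 CPM minus the mean of the 6 libraries for Serping1 (black), the 4 genes with the smallest root mean square difference from it, and Cd59a (grey) for contrast; lines only join the libraries of a gene. The 4 genes, chosen for this likeness, follow Serping1 within 0.13 to 0.17 on average, and Cd59a departs by 0.72.

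Markers of other cell types were read as lists. Macrophage markers, 4 of 10 tested, summed to 11.3 to 16.9 CPM in Ezh2 KO and 13.9 to 20.7 CPM in Ctrl, with Cd68, a lysosomal gene not restricted to macrophages, as the most abundant. The pan-leukocyte gene Ptprc had 0, 0 and 0.0247 CPM in Ezh2 KO and 0 in every Ctrl library. Visceral endoderm and liver markers, 5 of 12 tested, summed to 5.44 to 11.9 CPM in Ezh2 KO and 6.49 to 10.4 CPM in Ctrl, with Alb at 0 in all 6 libraries. Fibroblast and mesenchyme markers, 5 of 10 tested, summed to 3.40 to 7.43 CPM in Ezh2 KO and 6.65 to 10.7 CPM in Ctrl, with overlap. Trophoblast markers, 6 of 6 tested, summed to 32.0 to 46.4 CPM in Ezh2 KO and 28.8 to 46.5 CPM in Ctrl. Blood and endothelium markers, 5 of 7 tested, summed to 117 to 200 CPM in Ezh2 KO and 121 to 198 CPM in Ctrl, mostly from Pecam1, which germ cells also express. EdgeR, limma-voom and DESeq2 called 0 genes of these 5 lists. At an unadjusted p under 0.05 edgeR had 1 lower among the visceral endoderm and liver markers, 1 lower among the fibroblast markers, and Elf5 higher and Cdx2 lower among the trophoblast markers. Over all tested genes 1.55% were higher and 1.25% lower. With the replicate block 2 visceral endoderm and liver markers and 2 fibroblast markers were lower, against 3.12% of all tested genes. Median log2 fold changes were -0.88 for visceral endoderm and liver, -0.38 for fibroblast, -0.10 for blood and endothelium, 0.19 for trophoblast and 0.26 for macrophage markers. Elf5 averaged 1.17 ± 0.350 CPM in Ezh2 KO and 0.549 ± 0.170 CPM in Ctrl, and Cdx2 0.375 ± 0.122 CPM in Ezh2 KO and 0.851 ± 0.186 CPM in Ctrl (SD, n = 3 each). The part of other cell types in the difference of Serping1 was not tested.

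RefSeq upstream regions of 250 bases were matched for 4 of the 6 genes (Cd55, Cd59a, C3 and C1qbp); Serping1 and Clu were not matched. The dinucleotide CG, which reads the same on both strands, occurred 15 times for C1qbp, 8 times for Cd55, 1 time for C3 and 0 times for Cd59a. Of 32851 upstream regions in the table, 27.3% held at least as many as C1qbp, 43% at least as many as Cd55 and 92.1% at least as many as C3. In the transcripts, 0 of 2361 stretches of 50 bases in Serping1 occurred in another gene, and the same 0 was found for Clu and C3. Shorter or inexact matches were not searched, and the read length was not given in the sources used here.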

How the data were processed

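The values deposited by the authors are raw read counts, 1 row per Ensembl gene ID and 1 column per library. Per the submitters' processing notes, the tools were CASAVA 1.8.4, Trimmomatic 0.33, TopHat2 2.0.11 and featureCounts, and the builds NCBIM37 and mm9. Their settings and the use of strand were not given in the sources used here. If strand was ignored, a gene and an antisense partner cannot be told apart.

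Symbols and exon lengths came from GENCODE M21 by gene ID (32919 matched). Of 37991 IDs, 16420 passed filterByExpr (minimum count 10). EdgeR 4.0.16 in R 4.3.3 (TMM, robust quasi-likelihood test, group only, two-sided, Benjamini-Hochberg over all tested genes, threshold 0.05) gave the tests; Serping1 got none. CPM uses the TMM-scaled library sizes. The fit was tested on simulated data.

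Same-numbered libraries deviated together from their group means (r = 0.58, 0.37 and 0.19 across genes for replicates 1, 2 and 3), so a replicate block was run beside the main fit. Differently numbered libraries ran from r = -0.52 to 0.30. The highest, Ezh2 KO replicate 2 with Ctrl replicate 3, exceeded the same-numbered pair 3, so the pairing by number is uncertain. Alternatives were DESeq2 1.42.0, limma 3.58.1 (voom), DESeq2 size factors, other filters, the block, each library left out and, chosen after seeing the data, the end libraries of the first component left out.

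The members and lists were chosen with earlier results of these data known. Named were the 6 members, Ezh2, Cd55b and Cd59b, tested complement genes, called genes or else the 2 most abundant of each other list, and the 4 genes most like Serping1 of mean log2 CPM of at least 1. Complement genes below the filter, Serpinb1a, Kng1, Kng2 and single markers were named after their values were seen. Some genes that the rule names are not reported here.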

Additional observations from a re-analysis of the deposited data

How the results depend on the processing

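The log2 fold change of Serping1, 0.95 in the main fit, stayed between 0.89 and 1.06 over 14 alternatives (0.89 to 1.03 with each library left out, 0.95 with the replicate block in edgeR). Serping1 was picked for its rise in these same libraries, so this range describes the fits and is no evidence for the rise. The number of genes called was 0 in 13 of 15 alternatives, including each library left out, and was 5 in DESeq2 and 50 in DESeq2 with the replicate block. The other complement genes had 0 calls in all 14 alternatives. Cd55 ran from 0.05 to 0.59 and Clu from -0.31 to -0.01, with no change of sign. The sign turned in 5 genes. Cd59a, 0.02 in the main fit, was -0.0021 in DESeq2, -0.018 without a filter, -0.41 without both end libraries of the first component, and -0.25 to 0.31 with each library left out. C1qbp ran from -0.024 to 0.075 with each library left out, Cr1l from -0.33 to 0.11, and Cd59b from -0.12 to 0.34. Without both end libraries Cr1l was -0.45, Cd59b -0.30 and Cd55b -0.30, the last against 0.79 in the main fit. None of these passed edgeR's test under any of these alternatives, and the cause was not tested. Depth limits C3, at 1 to 11 reads a library. With 3 libraries a group, the interval of a weak gene such as Cd55b spans -0.67 to 2.24. The block changed no call of a gene named here in edgeR.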

Other observations

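Plasma kallikrein, which C1 inhibitor restrains, releases bradykinin from kininogen, and both mouse kininogen genes, named here after their values were seen, were measured. Kng2 had 2.89, 5.95 and 5.21 CPM in the Ezh2 KO replicates 1, 2 and 3, against 2.04, 2.16 and 2.83 CPM in the Ctrl replicates. Every Ezh2 KO library of Kng2 lay above every Ctrl library, as in 4.07% of all tested genes. Its log2 fold change was 1.00, and it did not pass edgeR's test (adjusted p = 0.976, or 0.466 with the replicate block). Because Kng2 was named after its values were seen, they are a description only. Kng1 had 0.909, 1.85 and 5.46 CPM in the Ezh2 KO replicates, against 0.474, 0.532 and 2.51 CPM in the Ctrl replicates, so that the groups overlapped while each Ezh2 KO library exceeded the Ctrl library of its number. The copies are alike in sequence and their reads may be shared. Of the 4 tested genes on the list of contact and fibrinolytic proteases and their substrates, edgeR, limma-voom and DESeq2 called 0. At an unadjusted p under 0.05 edgeR had 1 of them higher, and 2 with the replicate block. The shares over all tested genes were 1.55% and 5.98%. F11 and F12, which encode factors XI and XII of the contact path, had 0 reads in all 6 libraries.

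Among the serpins, Serpinb1a, which inhibits neutrophil proteases, was named here after its values were seen, so the values below are a description only. It had 2.51, 4.21 and 2.96 CPM in the Ezh2 KO replicates, against 1.34, 1.31 and 1.13 CPM in the Ctrl replicates. All Ezh2 KO libraries lay above all Ctrl libraries, as in 4.07% of all tested genes. The log2 fold change was 1.35, higher in 3 of 3 pairs, and did not pass edgeR's test (adjusted p = 0.976). It was 1.13 without Ezh2 KO replicate 2 and 1.17 without that library and Ctrl replicate 1.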
